A study of Homo sapiens with 26 samples.

Results

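Sites of estrogen receptor (ER) binding under estradiol were compared between PR-deficient T47D cells and T47D cells. T47D is a human breast cancer cell line with both ER and the progesterone receptor (PR). All rows of the 2 deposited site lists were taken, 7742 sites in PR-deficient T47D cells and 4014 in T47D cells, which gave 11756 of the 87206 sites listed in the series. Both lines had been kept without steroids in charcoal-stripped serum and were then given 10 nM estradiol (E2) for 45 min, and chromatin was precipitated with the anti-ER antibody HC-20 and sequenced (ChIP-seq). Per the labels, a vehicle library had been subtracted from each list. Each line has vehicle and input libraries of its own. The other 8 lists of the series also come from 45 min of hormone, as 10 nM R5020, a synthetic progestin, as 10 nM E2 with 10 nM R5020 (E2+R5020), or, for PR, as E2 too. They comprise ER with R5020 and with E2+R5020 in PR-deficient T47D and in T47D cells, PR (antibody KD68) with all 3 treatments in T47D cells, and a sequential ER then PR precipitation (reChIP) with E2+R5020 in T47D cells. The labels give the status of the lines as ER+/PR-deficient and ER+/PR+. How PR was lost, how much of it remained and whether the PR-deficient line is a single clone are not given in the sources used here, and the level of PR was not measured here.

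ER is a transcription factor that binds DNA once estradiol or another estrogen occupies it, at palindromic estrogen response elements or through other DNA-bound factors, and recruits coactivators that raise transcription of nearby genes. In breast cancer cells most ER binding lies in enhancers away from promoters, many of them opened by the pioneer factor FOXA1. PR is a related steroid receptor whose gene is a classical estrogen target, and progestin-bound PR can associate with ER on chromatin. The comparison asks where ER goes under estradiol alone when PR is deficient.

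With 1 library per condition there is no replicate error and no test between the lines. Intervals are exact Clopper-Pearson 95% intervals over sites and cover counting error only. They say nothing of the spread between cultures, and neighbouring sites are not independent. Read depth is unknown. A place missing from a list may lie under its threshold or may have been bound in the subtracted vehicle library, and these cannot be told apart from a place without ER. Sequences and gene annotation of hg19, the build of the lists, were not used here, and sites are named by position.

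The PR-deficient list held more sites, and its sites were slightly narrower. It covered 9.92 Mb with sites of 307 to 12534 bp (median 1076.5), against 5.43 Mb with sites of 374 to 6737 bp (median 1171) in T47D cells. The score that the authors gave each site ran from 25.8 to 585.37 in PR-deficient cells and from 15.12 to 209.37 in T47D cells. The score rose in steps of 1.61 in PR-deficient cells and of 0.58 in T47D cells, and the lowest score kept was 16 of those steps in PR-deficient cells and 26 in T47D cells. The scales of the lists therefore differ, and scores serve below only to rank sites within a list.

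A minority of the PR-deficient sites and a majority of the T47D sites were found in the other line. Of the PR-deficient sites, 2247 of 7742 (29.0%, 28.0 to 30.0) overlapped a T47D site by 1 bp or more. Of the T47D sites, 2204 of 4014 (54.9%, 53.4 to 56.5) overlapped a PR-deficient site. This left 5495 sites listed in PR-deficient cells alone and 1810 listed in T47D cells alone. Sites mostly met as single pairs: 2239 PR-deficient sites met 1 T47D site and 8 met 2, while 2154 T47D sites met 1 PR-deficient site, 49 met 2 and 1 met 3. By length, 22.7% of the DNA covered in PR-deficient cells lay inside T47D sites, and 41.5% of that covered in T47D cells lay inside PR-deficient sites. With the PR-deficient list reduced to as many of its highest-scoring sites as T47D has, 39.8% of PR-deficient and 39.5% of T47D sites overlapped the other list.

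Where the lists met, the sites lay on top of each other. Over the 2255 overlapping pairs, the median overlap was 938 bp and the median distance between centres was 94.5 bp, with centres within 200 bp in 72.5% of pairs. Few pairs rested on a slight contact, since 5 pairs overlapped by under 50 bp and 9 by under 200 bp. Just outside the rule, 17 PR-deficient sites and 5 T47D sites lay within 0.2 kb of a site of the other line without overlap. The PR-deficient site of a pair was usually the narrower: it was shorter in 1725 pairs (76.5%), longer in 526, and lay wholly inside the T47D site in 1191 (52.8%). The median length of paired sites was 999 bp in PR-deficient cells and 1237 bp in T47D cells, and the median ratio of PR-deficient to T47D length was 0.81. Lengths were within 2-fold in 85.7% of pairs.

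The order of sites by score was partly shared. Across the 2255 pairs, the ranks of the PR-deficient and T47D scores had a Spearman rho of 0.461, given as a description, since all pairs come from the same 2 libraries. Of the 761 pairs whose PR-deficient site stood in the highest-scoring quintile of its list, 435 (57.2%) had a T47D site in the highest-scoring quintile. Counted from T47D, 435 of 706 such pairs (61.6%) had a PR-deficient site in the highest-scoring quintile, and 19 (2.69%) had one in the lowest-scoring quintile.

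**Figure D1:**
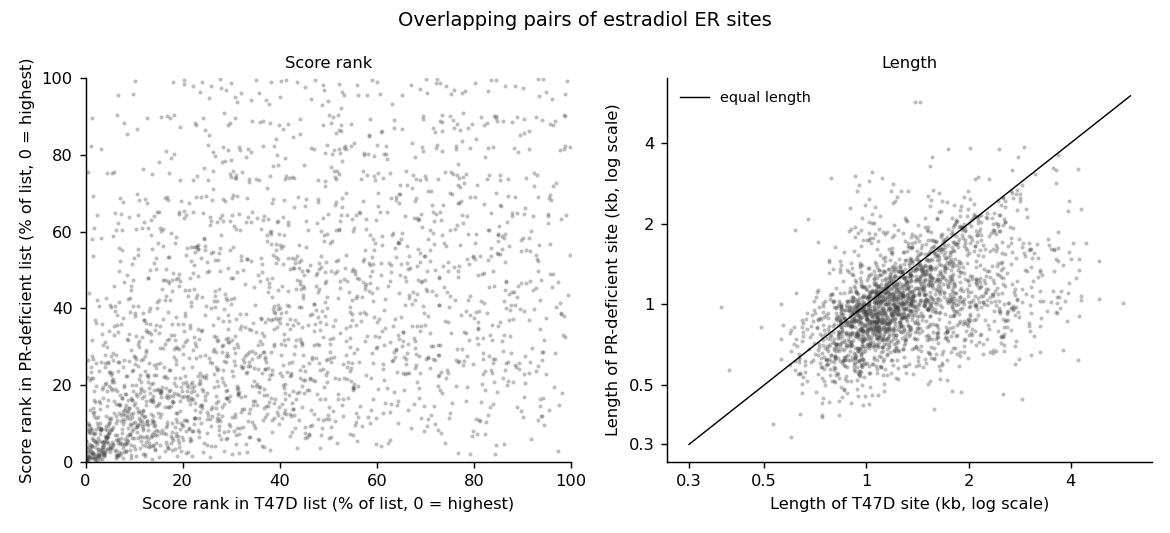
Each point is 1 of 2255 overlapping pairs of estradiol ER sites. The left panel plots the score rank in the PR-deficient list (y axis, percent of the list, 0 the highest score) against that in the T47D list (x axis), with points dense at the lower left. The right panel plots the length of the PR-deficient site against that of the T47D site (kb, log scales), with 76.5% of pairs below the line of equal length.

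Sharing rose with score up to the highest-scoring sites of T47D cells, but fell again among the highest-scoring sites of PR-deficient cells. By score quintile, from the highest to the lowest, the share of PR-deficient sites listed in T47D cells was 48.9, 37.3, 27.0, 18.2 and 13.8%. The share of T47D sites listed in PR-deficient cells was 84.7, 64.9, 52.4, 41.1 and 31.4%. Among the highest-scoring sites the lists parted. Of the 20 PR-deficient sites of highest score, 2 were listed in T47D cells (10.0%, 1.23 to 31.7). Of the 50 highest, 7 were (14.0%, 5.82 to 26.7), of the 100 highest, 25 (25%, 16.9 to 34.7), and of the 200 highest, 76 (38.0%, 31.2 to 45.1). The share reached 48.2% (44.7 to 51.8) over the 800 highest. Against 29.0% of the whole list, the 50 strongest PR-deficient sites were thus listed in T47D cells at a lower share, whose interval ends below that value. The interval reached the share of the whole list under 2 alternatives, at 10 of 50 sites (95% interval 10.0 to 33.7%) against 30.6% with a gap of up to 1000 bp allowed, and at 18.0% (8.58 to 31.4) against 29.4% with sites within 500 bp merged. The T47D list ran the other way: 47 of its 50 highest-scoring sites (94.0%, 83.5 to 98.7) and 188 of its 200 highest (94.0%, 89.8 to 96.9) were listed in PR-deficient cells, against 54.9% of the whole list. With centres required to lie within 200 bp, 8.0% of the 50 highest PR-deficient sites and 60.0% of the 50 highest T47D sites were shared. These numbers of top sites were chosen after the quintiles had been seen.

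**Figure D2:**
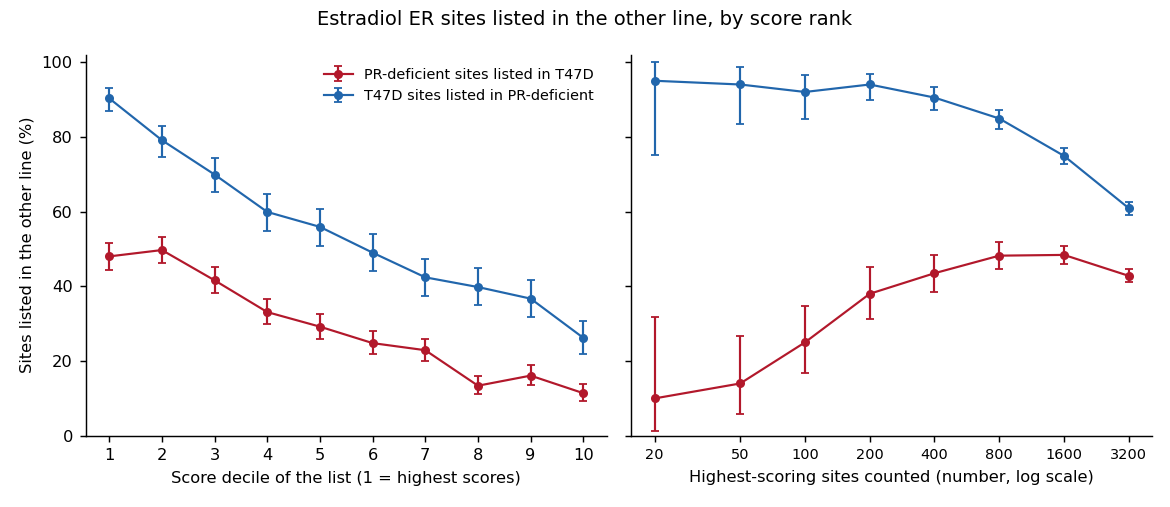
The share of estradiol ER sites listed in the other line (y axis, percent) by score decile (left, 1 the highest scores) and over the highest-scoring sites (right, number on a log scale); red is PR-deficient sites listed in T47D, blue T47D sites listed in PR-deficient cells, and bars are exact 95% intervals over sites. Over the 20 highest-scoring sites the shares are 10.0% in red and 95% in blue.

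The strongest T47D sites were also strong in PR-deficient cells without being its strongest. Of the 47 listed there, 38 stood in the highest-scoring quintile of the PR-deficient list and 5 among its 50 highest sites, with a median rank of 305 (19 to 6385). The 7 shared sites among the 50 highest of PR-deficient cells had a median rank of 16 (1 to 91) in T47D cells. The highest-ranked PR-deficient site found in T47D cells stood at rank 14, and the highest-ranked T47D site not found in PR-deficient cells at rank 13.

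The 5 PR-deficient sites of highest score were all absent from the T47D list of E2. They were chr17:38477036-38480561, chr11:72900038-72904119, chr17:49020935-49022710, chr17:55975357-55978114 and chr19:41426361-41428162. Each of the 5 was listed again in PR-deficient cells with E2+R5020 and in the T47D reChIP list, none in a T47D ER list, and 3 in the T47D PR list of E2+R5020. The sites of ranks 2, 3 and 4 were also in the PR-deficient R5020 list. The nearest T47D site lay 1.52 kb from the first (rank 3586 of the T47D list), 3.44 kb from the second (rank 1105) and 27.6 kb from the third (rank 1104). It lay 3.17 kb from the fourth (rank 499) and 21.8 kb from the fifth (rank 309). Over the 43 of the 50 highest-scoring PR-deficient sites that T47D lacked, the median distance to a T47D site was 22.9 kb, with 13 within 10 kb and 3 within 1 kb. Over all PR-deficient sites alone the median was 108 kb, with 13.4% within 10 kb and 2.17% within 1 kb.

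The 5 T47D sites of highest score were all found in PR-deficient cells. The first, chr19:34369141-34371898, met the PR-deficient site at 34370351 to 34371843, which ranked 31. The others were chr14:50458957-50461071, chr13:114535844-114537915, chr4:6415678-6417778 and chr15:33359487-33361754, and their PR-deficient counterparts ranked 71, 411, 421 and 42. All 5 were also listed in the E2+R5020 ER lists of both lines and in the reChIP list, and 4 in the T47D PR list of E2+R5020.

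The shared sites of best combined rank give places that were high in both lines. After the chromosome 19 site, with ranks 31 in PR-deficient cells and 1 in T47D cells, came chr1:235098387-235099969 (PR-deficient rank 19, T47D rank 24) and chr15:33359523-33361615 (PR-deficient rank 42, T47D rank 5). Next were chr19:10596169-10597832 (PR-deficient rank 34, T47D rank 16) and chr17:38604250-38605887 (PR-deficient rank 43, T47D rank 11), all in the coordinates of the PR-deficient list. Each of the 5 was listed with E2+R5020 for ER in both lines. The chromosome 1 site was the only one of the 5 outside the reChIP list.

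The highest-scoring T47D sites without a PR-deficient site stood lower in their list, at ranks 13, 28, 45, 54 and 80. They were chr11:75043426-75047620, chr7:151391582-151393933, chr17:29981400-29983766, chr17:55966871-55968840 and chr2:33294191-33295845. All 5 were listed again in the T47D ER list of E2+R5020 and in the reChIP list, and none in the PR-deficient list of E2+R5020. The chromosome 7 site was in the PR-deficient list of R5020. The site on chromosome 17 at 29981400 was listed in all 3 T47D PR lists. The fourth lay 0.71 kb from a PR-deficient site of rank 2808, at 55969546 to 55972221, in the same stretch as the PR-deficient site of rank 4, while the fifth lay 903 kb from any PR-deficient site.

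Sites of PR-deficient cells alone were wider and of lower score than shared ones, with a median score of 35.48 alone and 56.44 shared. Their median length was 1134 bp (95% interval of the median 1113 to 1154), against 998 bp (981 to 1012) for shared PR-deficient sites. The gap was present in each score quintile and widest in the highest, with 1602 bp for sites alone and 1181 bp for shared sites. Of the widest decile of PR-deficient sites, 83 of 775 (10.7%, 8.62 to 13.1) were listed in T47D cells. In T47D cells the order was the opposite over the whole list, 1098 bp (1074 to 1126) for sites alone and 1222.5 bp (1203 to 1249) for shared sites, and within score quintiles the medians of both kinds lay close (1523 bp alone and 1485 bp shared in the highest). The widest decile of T47D sites was shared at 62.9% (58.0 to 67.7). The widest PR-deficient site, 12534 bp at chr16:88984265-88996798, ranked 15 by score and lay 126 kb from any T47D site. The widest T47D site, 6737 bp at chr14:93566522-93573258, ranked 2266 and was in no other list.

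The other 8 lists show how the shared and single-line sites behaved in hormone libraries that the split did not use. The ER lists of a line share a subtracted vehicle library with its E2 list, so they are not independent of the split. Site length differed between those lists: the median was 1329 bp in the PR-deficient ER list of E2+R5020 and 149 to 292 bp in the other 7. An overlap with those 7 is thus that of a short site with a longer one, and few such pairs can cover 50% of both. In all 4 lists of E2+R5020, shared sites of each line were listed at a higher share than its sites alone over the whole list, but shared sites also score higher, and at matched score the order often differed. In the PR-deficient ER list of E2+R5020 stood 53.1% (51.7 to 54.4) of the PR-deficient sites alone and 61.4% (59.4 to 63.4) of the shared PR-deficient sites, against 55.5% of the whole list. Within score quintiles of the PR-deficient list the order was the opposite in all 5. From the highest quintile to the lowest, 95.7, 77.7, 54.0, 37.8 and 23.5% of the sites alone stood there, against 91.7, 71.1, 42.8, 24.9 and 12.2% of the shared sites. Of the T47D sites alone 2.21% (1.58 to 3.0) stood there and of the shared T47D sites 61.7% (59.6 to 63.7), against 34.9% of the whole list. A T47D site that PR-deficient cells lacked with E2 was thus rarely listed there with E2+R5020, at 40 of 1810 sites. The series has 1 vehicle ER library of PR-deficient cells, and a place bound in it may be missing from both of these PR-deficient lists. Its part in this share was not tested.

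The T47D ER list of E2+R5020 held 8.48% (7.76 to 9.25) of the PR-deficient sites alone and 23.7% (22 to 25.5) of the shared PR-deficient sites, against 12.9% of the whole PR-deficient list. It held 13.5% (11.9 to 15.1) of the T47D sites alone and 24.4% (22.6 to 26.2) of the shared T47D sites, against 19.5% of the whole T47D list. Within score quintiles, PR-deficient sites alone stood below shared ones in all 5. T47D sites alone stood below shared ones in the highest quintile (40.7% alone and 49.6% shared) and above them in the lowest (10.9% alone and 5.56% shared), with overlapping intervals in both. In the quintiles between, from the higher to the lower, 15.6, 12.3 and 9.09% of T47D sites alone and 20.3, 11.9 and 9.09% of shared ones stood there. With R5020 alone, the T47D ER list differed little between classes, at 4.82% (4.27 to 5.42) of PR-deficient sites alone and 5.74% (4.82 to 6.78) of shared ones (5.09% of the whole PR-deficient list), and at 6.69% (5.58 to 7.94) of T47D sites alone and 6.08% (5.12 to 7.16) of shared ones (6.35% of the whole T47D list). Either of these T47D ER lists held 646 of the 5495 PR-deficient sites alone (11.8%, 10.9 to 12.6), against 25.9% of the shared PR-deficient sites and 15.9% of the whole list. Either of the other PR-deficient ER lists held 80 of the 1810 T47D sites alone (4.42%, 3.52 to 5.47), against 62.1% of the shared T47D sites and 36.1% of the whole list. With sites reduced to 200 bp around their centres, these shares were 6.63% of the PR-deficient and 7.44% of the T47D sites alone. That rule also counted the sites alone anew, as 6107 PR-deficient and 2379 T47D sites. With E2 lists of equal length they were 15.3% of the PR-deficient and 9.63% of the T47D sites alone, and with the higher-scoring 50% of each list 15.0% of the PR-deficient and 11.3% of the T47D sites alone, so which of these shares is the higher depended on the overlap rule.

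The R5020 list of PR-deficient cells set the sites alone apart. It held 1080 of the 5495 PR-deficient sites alone (19.7%, 18.6 to 20.7) but 56 of the 2247 shared sites (2.49%, 1.89 to 3.22), against 14.7% of the whole list. The share among sites alone was nearly flat over score, 20.6% in the highest quintile and 19.3% in the lowest, and that among shared sites was 1.72% and 2.35%. It rose with width, 37.0% of sites alone and 6.45% of shared sites in the widest quintile, 5.63% and 1.31% in the narrowest, and sites alone stood above shared sites in all 5 length quintiles. Of T47D sites, that list held 2.38% (1.72 to 3.19) of those alone and 2.45% (1.85 to 3.18) of those shared, 2.42% of all. With sites reduced to 200 bp around their centres it held 9.02% of sites alone and 1.28% of shared sites, and with 50% of both sites required to overlap 0.941% and 0.105%. The median score of that list equals its lowest score, so a majority of its 9141 sites stand at its threshold. The E2 and R5020 lists of PR-deficient cells come from separate hormone libraries but share a subtracted vehicle library, so they are not independent. The part of that vehicle library in these shares was not tested.

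**Figure D3:**
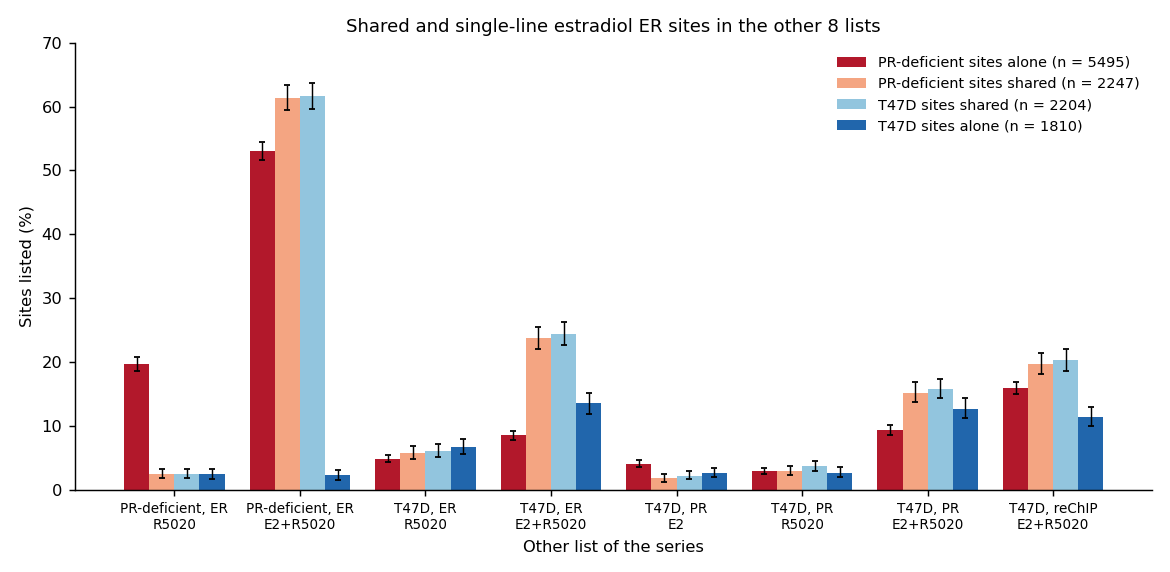
The share (y axis, percent) of 4 classes of estradiol ER sites listed in each of the 8 other lists of the series (x axis), with exact 95% intervals over sites as bars. PR-deficient sites alone stand at 19.7% in the R5020 ER list of PR-deficient cells, where the other 3 classes stand at 2.38 to 2.49%, and T47D sites alone stand at 2.21% in the E2+R5020 ER list of PR-deficient cells.

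PR binding in T47D cells was listed at a minority of the estradiol ER sites of either line, including those that only PR-deficient cells listed. The PR list of E2+R5020 held 9.34% (8.58 to 10.1) of the PR-deficient sites alone and 15.2% (13.8 to 16.8) of the shared PR-deficient sites, against 11.0% of the whole list. It held 12.7% (11.2 to 14.3) of the T47D sites alone and 15.8% (14.3 to 17.4) of the shared T47D sites, against 14.4% of the whole list. The PR list of R5020 held 2.88% of the PR-deficient sites alone and 2.89% of the shared ones (2.88% of the whole list), and 2.65% of the T47D sites alone and 3.63% of the shared ones (3.19% of the whole list). The PR list of E2 held 4.06% (3.55 to 4.61) of the PR-deficient sites alone and 1.74% (1.24 to 2.37) of the shared ones (3.38% of the whole list), and 2.60% of the T47D sites alone and 2.18% of the shared ones (2.37% of the whole list). Any of the 3 PR lists held 13.4% (12.5 to 14.4) of the PR-deficient sites alone, 17.4% (15.8 to 19.0) of the shared PR-deficient sites, 15.3% (13.7 to 17.0) of the T47D sites alone and 18.6% (17.0 to 20.2) of the shared T47D sites. With sites reduced to 200 bp around their centres, the PR lists held 7.12% of the PR-deficient sites alone, 11.7% of the shared PR-deficient sites and 8.11% of the T47D sites alone; with 50% of both sites overlapping they held 2.51, 4.59 and 2.13% of these. Over the whole lists, any of the 3 held 14.6% of the PR-deficient and 17.1% of the T47D sites. In the highest-scoring quintile the PR list of E2+R5020 held 22.9% of the PR-deficient sites alone and 20.7% of the shared ones, and 27.6% of the T47D sites alone and 25.7% of the shared ones, with overlapping intervals in both lines. From the next quintile to the lowest, it held 9.48, 7.25, 6.24 and 5.92% of PR-deficient sites alone, each below the 13.8, 12.9, 11.0 and 9.39% of shared ones. The T47D order varied, with 12.8, 11.5, 11.0 and 11.6% of sites alone and 14.2, 13.8, 8.48 and 5.56% of shared ones.

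The reChIP list, made in T47D cells with E2+R5020 to recover fragments with both receptors and subtracted for vehicle and IgG per the labels, held 15.9% (15.0 to 16.9) of the PR-deficient sites alone and 19.7% (18.1 to 21.4) of the shared PR-deficient sites, against 17.0% of the whole list. It held 11.4% (10.0 to 13.0) of the T47D sites alone and 20.3% (18.6 to 22) of the shared T47D sites, against 16.3% of the whole list. Among T47D sites the intervals of both kinds overlapped in each score quintile, with 37.4% (28.8 to 46.6) of the sites alone and 41.2% (37.4 to 45.0) of the shared sites in the highest. Among PR-deficient sites of the highest-scoring quintile the order turned, with 46.7% of the 792 sites alone and 28.8% of the 757 shared sites in the reChIP list. Sites alone were also wider there, as given above. By length quintile of the whole PR-deficient list, from the widest to the narrowest, the reChIP list held 31.0, 19.1, 11.8, 7.36 and 5.63% of sites alone. It held 30.2, 25.5, 20.6, 15.3 and 14.0% of shared sites. At matched width over all scores, sites alone thus stood below shared ones except in the widest quintile, where the intervals overlapped. The part of width within the highest-scoring quintile was not tested. With sites reduced to 200 bp around their centres, the reChIP list held 9.71% of the PR-deficient sites alone, 14.5% of the shared PR-deficient sites and 7.40% of the T47D sites alone.

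The strongest PR-deficient sites that T47D lacked with E2 were nearly all in the reChIP list. Of the 43 such sites among the 50 of highest score, 40 were in the reChIP list (93.0%, 80.9 to 98.5), against 17.0% of the whole PR-deficient list. The PR-deficient ER list of E2+R5020 held 42 (55.5% of the whole list). The T47D PR list of E2+R5020 held 26 (11.0%) and the PR-deficient R5020 list 16 (14.7%). The 50 sites were wide, with a median of 2102.5 bp against 1076.5 bp for the whole list. Overlap with the reChIP list rose with width, as given above, and the part of width here was not tested. The T47D ER list of E2+R5020 held 10 of the 43 (23.3%), against 12.9% of the whole PR-deficient list. In the reChIP list and in neither of the other T47D ER lists were 30 of the 43 (69.8%). Of the 7 shared sites among these 50, all 7 were in the T47D ER list of E2+R5020 and 6 in the reChIP list. Of the 50 T47D sites of highest score, 44 were in the reChIP list, 48 in the T47D ER list of E2+R5020 and 1 in the reChIP list without another T47D ER list. Over the whole T47D list these shares were 16.3, 19.5 and 5.36%. With sites reduced to 200 bp around their centres, 17 of the 46 top PR-deficient sites alone (37.0%, 23.2 to 52.5) were in the reChIP list. Over the whole list, 565 of the 5495 PR-deficient sites alone (10.3%, 9.49 to 11.1) stood in the reChIP list and in neither other T47D ER list, against 125 of the 2247 shared PR-deficient sites (5.56%, 4.65 to 6.59) and 690 of all 7742 (8.91%).

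**Figure D4:**
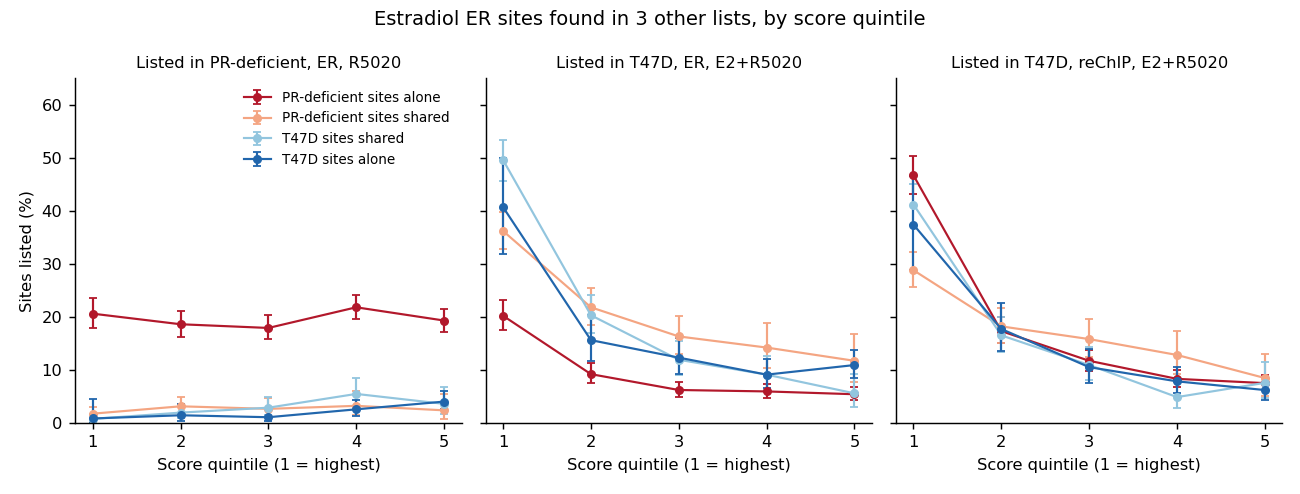
The share of estradiol ER sites (y axis, percent) listed in 3 other lists, by score quintile of their own list (x axis, 1 the highest), for PR-deficient sites alone and shared and T47D sites shared and alone; bars are exact 95% intervals over sites. In the highest quintile of PR-deficient sites, those alone stand below the shared ones in the T47D ER list of E2+R5020 (20.2% and 36.2%) and above them in the reChIP list (46.7% and 28.8%).

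Over all scores, PR-deficient sites alone were called in another PR-deficient library slightly less often than shared ones. Most T47D sites alone were in no other list. Of the PR-deficient sites alone, 1943 of 5495 (35.4%) were in none of the other 8 lists, against 32.7% of all PR-deficient sites. In at least 1 of the other PR-deficient ER lists were 3174 of them (57.8%, 56.4 to 59.1), against 61.9% of the shared sites and 59.0% of all. Of the T47D sites alone, 1260 of 1810 (69.6%) were in none of the 8, against 45.4% of all T47D sites. In at least 1 of the other T47D ER lists were 308 of them (17.0%, 15.3 to 18.8), against 26.7% of the shared sites and 22.3% of all. Counting every other T47D list, 28.6% of T47D sites alone, 38.4% of shared ones and 34.0% of all were listed. For PR-deficient sites alone this share was 28.6% too. The PR-deficient ER list of E2+R5020 held 2.21% of T47D sites alone and 61.7% of shared ones. That list shares a subtracted vehicle library with the PR-deficient E2 list that set the split. Among sites listed in their own line with both E2 and E2+R5020, 1380 of 4296 PR-deficient sites (32.1%, 30.7 to 33.5) and 537 of 781 T47D sites (68.8%, 65.4 to 72.0) were listed with E2 in the other line. Among those listed with E2 and not E2+R5020, 25.2% (23.7 to 26.6) of the PR-deficient and 51.6% (49.8 to 53.3) of the T47D sites were. These restate the counts by class given above and are not matched for score. Within each score quintile the PR-deficient order was the opposite, and the T47D order varied between quintiles.

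Single-line sites were seldom just beside a site of the other line. The median distance to the nearest T47D site was 108 kb for PR-deficient sites alone, with 2.17% within 1 kb and 13.4% within 10 kb. The median distance to the nearest PR-deficient site was 49.5 kb for T47D sites alone, with 3.09% within 1 kb and 21.4% within 10 kb. The PR-deficient list is the longer.

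The excess of PR-deficient over T47D sites was uneven along the genome. The ratio of their numbers ran from 1.28 on chromosome 22 (204 PR-deficient and 160 T47D sites) to 2.62 on chromosome 15 (317 PR-deficient and 121 T47D sites), leaving out chromosome Y with 3 PR-deficient and 5 T47D sites. PR-deficient sites were listed in T47D cells most often on chromosomes 22 (45.6%, 38.6 to 52.7), 18 (43.0%, 33.1 to 53.3) and 2 (40.4%, 35.6 to 45.3), and least often on chromosomes 7 (20.7%, 16.9 to 24.9), 14 (21.9%, 17.7 to 26.7) and 16 (22.9%, 19.0 to 27.2). T47D sites were listed in PR-deficient cells at 42.0% (35.1 to 49.2) on chromosome 5 up to 66.2% (54.3 to 76.8) on chromosome 13. Since sites mostly met as single pairs, the shares of a chromosome are tied to its ratio of site numbers. Copy number of either line was not measured here, and its part in these values was not tested.

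**Figure D5:**
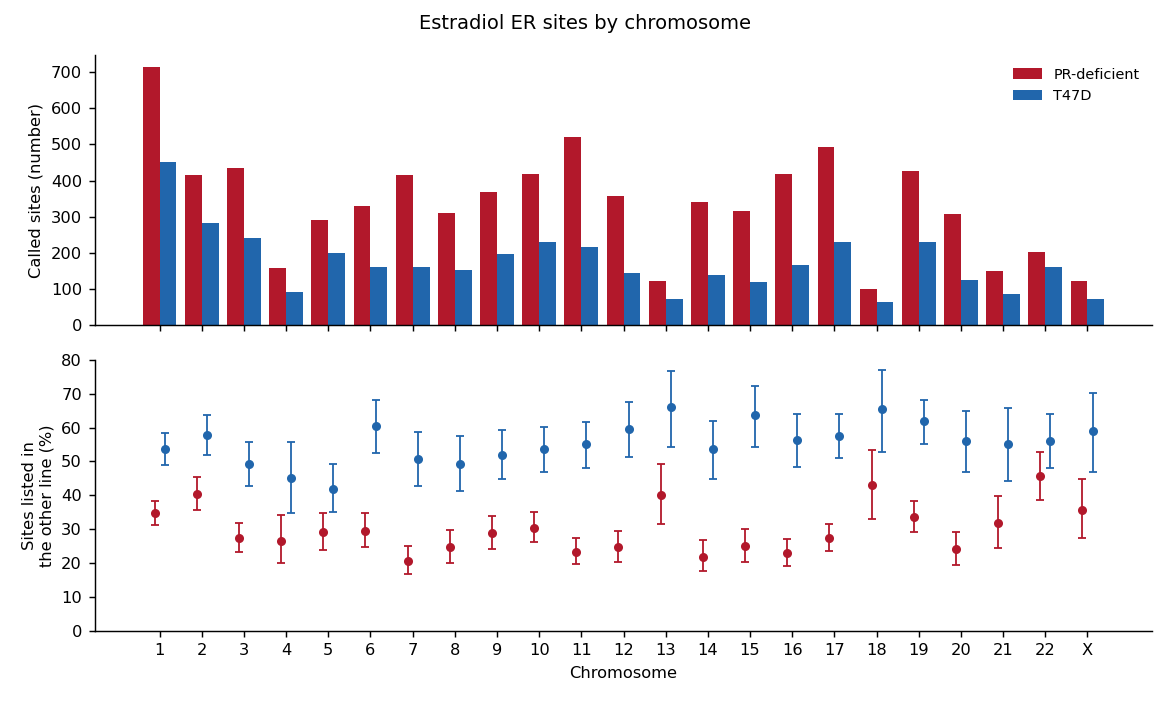
The number of called estradiol ER sites per chromosome (top, PR-deficient left of T47D) and the share listed in the other line (bottom, percent, exact 95% intervals over sites), without chromosome Y. On every chromosome shown the red PR-deficient bars are higher than the blue T47D bars, with ratios of 1.28 to 2.62. The T47D shares lie above the PR-deficient ones, which follows from the numbers of sites, since sites mostly met as single pairs.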

How the data were processed

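Both E2 lists and the other 8 came from ChIP-seq libraries aligned to hg19 by Bowtie2, with sites from MACS, per the submitters' processing notes (for versions and settings: not given in the sources used here). Every deposited list has 5 unnamed columns, read as position, site length in bp and a score of the authors whose unit is not given; start and end were taken as 1-based, since the length in each row is that of the closed interval. Per the labels, vehicle was subtracted from each list; how is not stated. Of 26 samples in as many groups, 10 have a list, matched to samples by the labels.

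Overlap of 1 bp or more was counted (Python 3.11.15, pandas 2.3.3, NumPy 2.4.6), with intervals from SciPy 1.17.1 and plots from matplotlib 3.10.9. The overlap count was tested on simulated data against a direct count. Tied scores were ordered by length, then position. Named sites were the 5 of highest score per list, the 5 shared sites of lowest summed rank, the 5 highest of each line alone and the widest of each list. Members and rules were chosen with earlier results of these data known. Alternatives changed the overlap rule, the score threshold, the number of sites, merging and chromosome Y. Planned motif and gene searches were not run, since no sequence or annotation of hg19 was used here.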

Additional observations from a re-analysis of the deposited data

How the results depend on the processing

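Of 108 values of 19 results under 9 alternatives, 45 stayed within the interval of the value in the text (for numbers of sites, within 1.5 times of it) and 63 moved, most of them with the overlap rule; without chromosome Y none of the 19 moved. Some of these outcomes were set by construction. Keeping the higher-scoring 50% of each list fixed the numbers of sites at 3871 and 2007, beyond 1.5 times. Chromosome Y holds 3 PR-deficient and 5 T47D sites, so leaving it out could change little. The results on the 50 highest-scoring sites and on the R5020 list of PR-deficient cells, with their alternatives, were added after seeing the data. No paired analysis was possible because there is 1 library per group. The planned motif alternatives were not run.

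With centres within 200 bp, the share of PR-deficient sites listed in T47D was 21.1% and of T47D sites listed in PR-deficient cells 40.8%; with 200 bp around each centre, 21.1% and 40.7%; with 50% of both sites overlapping, 24.5% and 47.3%. With lists of equal length they were 39.8% and 39.5%. The PR-deficient share was 30.6% with a gap of up to 1000 bp allowed and 30.4% with the lowest score raised by 1 step. The 50 highest T47D sites were listed in PR-deficient cells at 60.0%, 60.0% and 74.0% under the first 3 alternatives, in that order, while for the 50 highest PR-deficient sites no alternative left the interval around 14.0%. In the reChIP list stood 37.0%, 37.0% and 15.9% of the top PR-deficient sites alone. Each alternative counted shared sites and sites alone anew, so a class does not hold the same sites under every rule.

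For PR-deficient sites alone, under the same 3 alternatives and then the gap, the R5020 list of PR-deficient cells held 9.02, 9.02, 0.941 and 22.2%, any T47D PR list 7.14, 7.12, 2.51 and 18.8%, the reChIP list 9.76, 9.71, 3.46 and 17.9%, and another T47D ER list 6.63, 6.63, 1.69 and 15.5%. For shared PR-deficient sites they held 1.28, 1.28, 0.105 and 3.85% (R5020), 11.7, 11.7, 4.59 and 21.8% (PR) and 14.5, 14.5, 4.90 and 21.9% (reChIP). For T47D sites alone, any PR list held 8.12, 8.11, 2.13 and 18.2%. The reChIP list held 7.44, 7.40 and 1.09% of them under the first 3, and another PR-deficient ER list held 7.40 and 7.44% under the centre rules and 5.76% with the gap. With lists of equal length, another T47D ER list held 15.3% of PR-deficient sites alone, and another PR-deficient ER list 9.63% of T47D sites alone; with the higher-scoring 50% of each list these were 15.0% and 11.3%. The shortened lists held 3871 PR-deficient and 2007 T47D sites of median length 1180.0 and 1299.0 bp, and merging sites within 500 bp gave a PR-deficient median of 1093.0 bp. Read depth is unknown, so its effect on which sites pass could not be set.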

Other observations

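Sites of a single line were spread over the genome, and few stood in any 1 Mb window of hg19. The 5 windows with the most PR-deficient sites alone, chosen after their values were seen, held 118 of the 5495 (2.15%), and the 5 with the most T47D sites alone held 43 of the 1810 (2.38%). Sites alone made up 71.0% of the PR-deficient list and 45.1% of the T47D list. In PR-deficient cells, the window of chromosome 3 from 193 to 194 Mb held 33 sites, 29 of them alone, against 4 T47D sites. On chromosome 9, the window from 130 to 131 Mb held 30 PR-deficient sites, 23 of them alone, against 9 T47D sites. The windows of chromosome 9 from 139 to 140 Mb and of chromosome 16 from 1 to 2 Mb each held 25 PR-deficient sites, 23 of them alone, against 5 T47D sites. On chromosome 14 from 105 to 106 Mb all 20 PR-deficient sites were alone, with 1 T47D site in the window. The leading T47D window by sites alone, chromosome 5 from 134 to 135 Mb, held 4 PR-deficient sites and 12 T47D sites, 10 of them alone.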
